A study of Mus musculus with 8 samples.

Results

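The insulin-like growth factor (IGF) system was followed in tibialis anterior muscle through 10 genes, measured on exon arrays of fasted and fed mice. They were the ligand genes Igf1 and Igf2, the receptor genes Igf1r and Igf2r, and the binding protein genes Igfbp2, Igfbp3, Igfbp4, Igfbp5, Igfbp6 and Igfbp7. A gene was taken where a transcript cluster, the array's unit of 1 gene-level value, carried its symbol alone in the platform annotation. Each of the 10 had 1 such cluster, and they made up 10 of 14860 genes with a symbol of their own among 16755 clusters. The fasted group was 4 pools of RNA from mice without food for 24 h, and the fed group was 4 pools from mice with free access to food. All mice were males aged 8 weeks, with no genetic change given in the labels and the strain not given in the sources used here. Each pool held RNA of 3 mice, and each of 4 experiments contributed 1 fasted and 1 fed pool. A pool gives no spread between single mice, so SDs below describe the spread between pools. SEs also draw on the spread of all clusters, as described under processing.

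IGF1 is a secreted growth factor that liver makes under growth hormone and that muscle also makes for its own use. Through the tyrosine kinase receptor IGF1R it activates PI3K and AKT, which favour protein synthesis and restrain FoxO transcription factors, drivers of muscle protein breakdown in fasting. IGF2 is mainly a growth factor of fetal life from an imprinted gene, and IGF2R clears it from the cell surface and carries lysosomal enzymes. The IGF binding proteins hold the ligands in blood and extracellular matrix, and can either withhold them from the receptor or deliver them.

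Values are log2 expression values, on which a difference of 1 is a doubling. Array medians lay between 5.76 and 5.91. Of the muscle fibre markers, 6 were measured, with mean log2 values between 10.8 and 12.4, and 3 liver markers were measured, with means between 4.64 and 5.33. No value carried a detection call, and all 10 IGF genes passed the filter on low means that is tried as an alternative below. Because probes differ in response, levels of different genes, these markers included, are given as a description and are not compared.

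Of the 10 IGF genes 1, Igfbp5, fell in fasted muscle and none rose at an adjusted p under 0.05 in limma's test with experiment as a block. Across all clusters, 0.818% passed in either direction, 0.531% higher and 0.286% lower in fasted muscle. An unadjusted p under 0.05 was reached by 4 of the 10, Igfbp5, Igf1, Igf1r and Igfbp7, against 10.9% of all clusters. Groups did not overlap for 4 of the 10 genes, against 6.77% of all clusters. Igfbp5, Igf1 and Igfbp7 had every fasted pool below every fed pool, an arrangement seen in 3.22% of all clusters, and Igf1r had every fasted pool above, seen in 3.55%. Groups that do not overlap must differ in 1 direction in 4 of 4 experiments, so that count adds nothing for these 4 genes. No other IGF gene differed in 1 direction in 4 of 4 experiments, while 18.7% of all clusters did. Differences of Igf2, Igf2r, Igfbp2, Igfbp4 and Igfbp6 lay within 0.1 of 0 on the log2 scale. The median difference of the 10 genes was -0.056, against -0.016 for all clusters, with 8 of 10 below 0 against 54.4% of all clusters. The 10 genes were chosen with earlier results of these data known, so these counts describe them and are no test of the set.

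**Figure D1:**
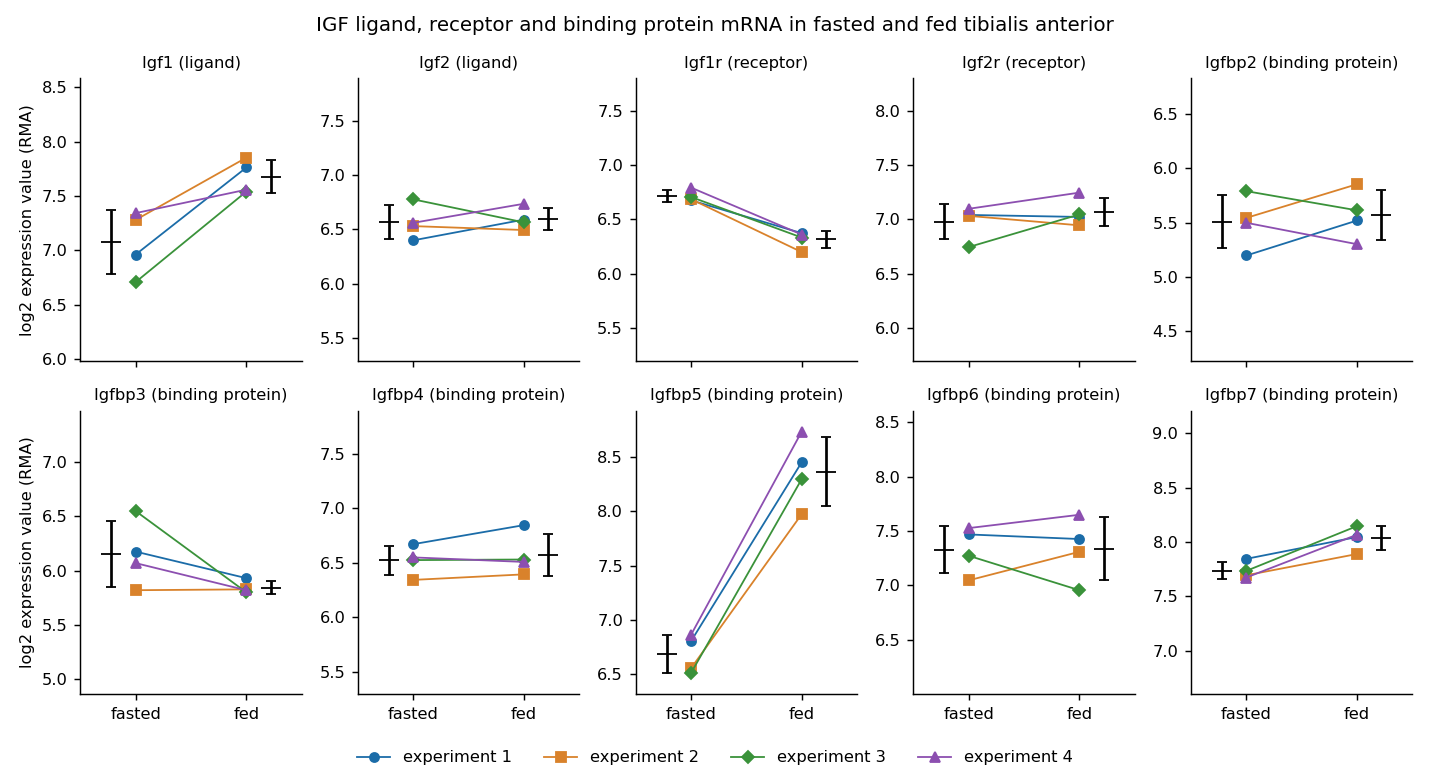
Log2 expression values (RMA, vertical axis, the same span in each panel) of 10 IGF genes in 4 fasted and 4 fed pools, with lines joining the pools of 1 experiment and black bars giving the mean and SD of each group. Igfbp5 has fasted pools between 6.51 and 6.86 and fed pools between 7.97 and 8.73, and the groups are also apart for Igf1, Igf1r and Igfbp7.

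Among the ligands, Igf1 had log2 values of 6.96, 7.28, 6.71 and 7.34 in the fasted pools of experiments 1 to 4, against 7.76, 7.85, 7.54 and 7.56 in the fed pools. The highest fasted pool, that of experiment 4, lay below the lowest fed pool, that of experiment 3. The means were 7.07 ± 0.29 in fasted and 7.68 ± 0.15 in fed muscle (SD, n = 4 each), and the difference was -0.61 ± 0.13 (SE), or 0.657 times the fed level with a 95% interval of 0.532 to 0.812. Within experiments 1 to 4 it was -0.80, -0.57, -0.83 and -0.22. Experiment 4, with the smallest difference, paired the highest fasted pool with a low fed pool. The unadjusted p was 0.00188 and the adjusted p 0.111, so Igf1 was not called. Its adjusted p lay between 0.0518 and 0.324 under 11 alternative settings of the fit, none of which called it.

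The other ligand gene, Igf2, had fasted pools between 6.40 and 6.78 and fed pools between 6.49 and 6.74 on the log2 scale, a full overlap. Its difference was -0.030 ± 0.11 with a 95% interval of -0.30 to 0.24 (adjusted p = 0.980), and 2 experiments lay above 0 and 2 below. That interval does not reach the Igf1 estimate of -0.61. Whether the responses of the 2 ligand genes differ was not tested.

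The promoter windows of the ligand Igf1, its receptor gene Igf1r, the called binding protein gene Igfbp5 and, as a contrast with a difference near 0, Igfbp4 are shown because they are the start-site sequence of the genes on which the comparison turns. Each holds 250 bases before and 50 bases from the annotated start, read 5′ to 3′ along the gene, from RefSeq on GRCm38.p6. Igf1 is at chr10:87860861-87861160 (plus strand), Igf1r at chr7:67952007-67952306 (plus), Igfbp5 at chr1:72874816-72875115 (minus) and Igfbp4 at chr11:99040994-99041293 (plus). Capitals mark matches to 6 motifs searched on both strands, and lower case is the rest.
Igf1: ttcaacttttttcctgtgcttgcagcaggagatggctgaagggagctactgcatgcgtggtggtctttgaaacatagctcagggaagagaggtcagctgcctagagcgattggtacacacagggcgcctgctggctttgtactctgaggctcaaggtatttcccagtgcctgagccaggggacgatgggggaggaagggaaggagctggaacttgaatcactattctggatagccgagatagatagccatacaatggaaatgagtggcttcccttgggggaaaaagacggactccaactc
Igf1r: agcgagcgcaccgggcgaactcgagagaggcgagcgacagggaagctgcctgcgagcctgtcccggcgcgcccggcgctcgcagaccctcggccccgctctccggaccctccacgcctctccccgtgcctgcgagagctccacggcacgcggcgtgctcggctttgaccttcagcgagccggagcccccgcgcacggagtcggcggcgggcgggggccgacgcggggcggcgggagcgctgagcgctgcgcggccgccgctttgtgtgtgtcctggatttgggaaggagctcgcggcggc
Igfbp5: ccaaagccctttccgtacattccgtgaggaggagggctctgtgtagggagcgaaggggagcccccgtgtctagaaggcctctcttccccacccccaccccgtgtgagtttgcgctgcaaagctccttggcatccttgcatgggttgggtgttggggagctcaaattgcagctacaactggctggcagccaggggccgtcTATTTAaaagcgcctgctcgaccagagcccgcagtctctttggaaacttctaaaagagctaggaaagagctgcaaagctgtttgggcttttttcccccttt
Igfbp4: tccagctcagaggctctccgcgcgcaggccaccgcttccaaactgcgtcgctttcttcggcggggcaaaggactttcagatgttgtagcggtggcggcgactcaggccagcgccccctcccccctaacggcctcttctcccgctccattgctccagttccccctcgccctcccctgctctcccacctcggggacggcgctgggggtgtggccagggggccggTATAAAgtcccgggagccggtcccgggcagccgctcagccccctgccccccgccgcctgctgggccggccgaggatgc

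The motifs were GTAAACA, bound by FoxO factors, ACANNNTGT, the core of the glucocorticoid receptor palindrome, TTCNNNGAA, bound by STAT5, and 3 forms of the TATA box that places transcription starts. Of all 32851 promoter windows in the table, 3.65% held the FoxO motif, 6.85% the glucocorticoid receptor core and 8.3% the STAT5 motif. The TATA box form TATAAA was held by 13.6% of all windows. The form TATTTA was held by 13.7% and the form TATATA by 5.67%, and both of these were added after the sequences had been read. None of the 14 windows of the 10 IGF genes held any of the 3 factor motifs, which says only that these letters are not in these windows. Igfbp5 held TATTTA starting 51 bases before its annotated start. Igfbp4 held TATAAA starting 28 bases before, and in Igfbp3 a match to TATATA began 30 bases before. In Igfbp6 the form TATAAA lay on the opposite strand, 148 bases before the start. Igfbp5, which fell, and Igfbp4, which was not called, both held a form of the TATA box, with no form in the windows of Igf1 and Igf1r. Because the form in Igfbp5 was added after the sequences had been read, nothing is drawn from this contrast. The windows differed in base composition. That of Igf1r had 76% G and C with 48 CpG sites, that of Igfbp4 71.3% with 27, that of Igfbp5 56.3% with 10 and that of Igf1 52.3% with 6, against medians of 52.7% and 7 over all windows.

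Among the receptors, Igf1r, which encodes the tyrosine kinase that binds IGF1, had log2 values of 6.68, 6.69, 6.71 and 6.79 in the fasted pools, against 6.37, 6.20, 6.33 and 6.36 in the fed pools of experiments 1 to 4. Both groups were tight and did not overlap, with SDs of 0.053 in fasted and 0.080 in fed muscle (n = 4 each). The difference was 0.40 ± 0.10 (SE), a 1.32-fold higher level with a 95% interval of 1.12 to 1.55, and it was 0.30, 0.49, 0.37 and 0.43 within experiments 1 to 4. The unadjusted p was 0.00451 and the adjusted p 0.171, so Igf1r was not called, and the adjusted p lay between 0.0678 and 0.582 under the 11 alternatives. The intervals were not adjusted for the number of clusters, so that of a gene without a call can leave out 0. Igf1r was the only 1 of the 10 genes whose fasted pools all lay above its fed pools.

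The receptor for IGF2 and mannose-6-phosphate, Igf2r, had fasted pools between 6.75 and 7.10 and fed pools between 6.95 and 7.25. The groups overlapped, and the difference was -0.086 ± 0.11 (95% interval -0.34 to 0.17, adjusted p = 0.909), above 0 in experiments 1 and 2 and below 0 in experiments 3 and 4. Experiment 3 held the lowest fasted pool.

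Among the binding proteins, Igfbp5 had log2 values of 6.81, 6.56, 6.51 and 6.86 in the fasted pools, against 8.45, 7.97, 8.30 and 8.73 in the fed pools of experiments 1 to 4. The gap between the highest fasted and the lowest fed pool exceeded the range of either group. IGFBP5 binds extracellular matrix as well as IGFs, and its gene is switched on when cultured myoblasts differentiate. Its mRNA was 3.20-fold lower in fasted muscle (log2 -1.68 ± 0.12 SE, adjusted p = 0.00202), or 0.312 times the fed level with a 95% interval of 0.259 to 0.376. Within experiments 1 to 4 the difference was -1.65, -1.42, -1.78 and -1.87, and it was called under all 11 alternatives with an adjusted p between 0.000353 and 0.031. Pools of the same experiment kept nearly the same order in both groups, with experiment 4 highest and experiment 1 next among fasted as among fed pools.

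In whole muscle, fewer cells of a type and less RNA per cell cannot be told apart. Of 7 fibroblast and fibro-adipogenic markers measured, 5 lay below 0, against 54.4% of all clusters, with a list median of -0.30, and none passed. An unadjusted p under 0.05 in limma's test was reached by 3 lower markers and 1 higher marker, against 10.9% of all clusters. Lum, which encodes the matrix proteoglycan lumican, was at -0.95 ± 0.19 (adjusted p = 0.0899), the collagen gene Col1a2 at -0.45 ± 0.11 (adjusted p = 0.169) and Col1a1 at -0.39 (adjusted p = 0.301). These 3 genes and the collagen gene Col3a1 were each lower in 4 of 4 experiments. The groups of Lum did not overlap, and it was called in 3 of 11 alternatives. Pdgfra, which encodes a growth factor receptor of fibro-adipogenic cells, was at 0.29 ± 0.11 (adjusted p = 0.369) and above 0 in 4 of 4 experiments, and the proteoglycan gene Dcn was at 0.14 ± 0.14 (adjusted p = 0.852). The summed level of the 7 markers overlapped between the groups, at log2 values of 11.2 to 11.7 in fasted and 11.2 to 11.8 in fed muscle. The sum is weighted to the marker of highest signal, Dcn (log2 means 10.6 in fasted and 10.4 in fed muscle). It therefore says little about Lum or the collagen genes. Their part in the result for Igfbp5 was not tested. Of the 5 satellite cell markers, 3 lay above 0 and 2 below, with a summed log2 level of 8.41 to 8.54 in fasted and 8.30 to 8.44 in fed muscle.

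Igfbp7 encodes a matrix protein of vessels that binds IGFs weakly. It had log2 values of 7.84, 7.69, 7.73 and 7.67 in the fasted pools, against 8.05, 7.89, 8.15 and 8.07 in the fed pools of experiments 1 to 4. The groups did not overlap, though the highest fasted pool and the lowest fed pool lay close together. The difference was -0.30 ± 0.10 (0.812 times the fed level, 95% interval 0.686 to 0.961), at -0.20, -0.20, -0.41 and -0.39 within experiments, and was not called (unadjusted p = 0.0214, adjusted p = 0.324). Of 8 endothelial markers, 6 lay above 0 and 2 below, none passed, and their summed log2 level was 9.96 to 10.4 in fasted and 9.96 to 10.3 in fed muscle. The endothelial receptor gene Kdr was at -0.48 ± 0.12 (adjusted p = 0.163) and the endothelial adhesion gene Pecam1 at 0.34 ± 0.11 (adjusted p = 0.292), so these markers did not share a direction.

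Igfbp3, which encodes the main IGF carrier of blood, had log2 values of 6.18, 5.82, 6.55 and 6.07 in the fasted pools, against 5.93, 5.83, 5.80 and 5.82 in the fed pools. The fed pools were nearly equal (SD 0.059) and the fasted pools spread widely (SD 0.30), with experiment 2 at the fed level and experiment 3 highest. The difference was 0.31 ± 0.14 (95% interval -0.013 to 0.63, adjusted p = 0.484), and without experiment 3 it was 0.16. No direction can be drawn for it from these pools.

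The remaining binding protein genes overlapped between the groups. Igfbp2, whose product also binds integrins, had fasted pools between 5.20 and 5.79 and fed pools between 5.30 and 5.85, with a difference of -0.065 ± 0.13 (95% interval -0.37 to 0.24). Igfbp4, whose product withholds IGFs until it is cleaved by the protease PAPP-A, had fasted pools between 6.34 and 6.67 and fed pools between 6.39 and 6.85, with a difference of -0.047 ± 0.10 (95% interval -0.28 to 0.19). Igfbp6, whose product prefers IGF2, had fasted pools between 7.05 and 7.53 and fed pools between 6.96 and 7.65, with a difference of -0.0065 ± 0.12 (95% interval -0.30 to 0.28). Their adjusted p were 0.955, 0.956 and 0.996. These intervals lie apart from that of Igfbp5, -1.95 to -1.41, as do those of Igfbp3 and Igfbp7. The SD of the 4 differences was 0.093 for Igfbp4, 0.12 for Igfbp7, 0.20 for Igfbp5, 0.25 for Igfbp6, 0.29 for Igfbp2 and 0.32 for Igfbp3. Whether these SDs, each from 4 values, differ was not tested.

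**Figure D2:**
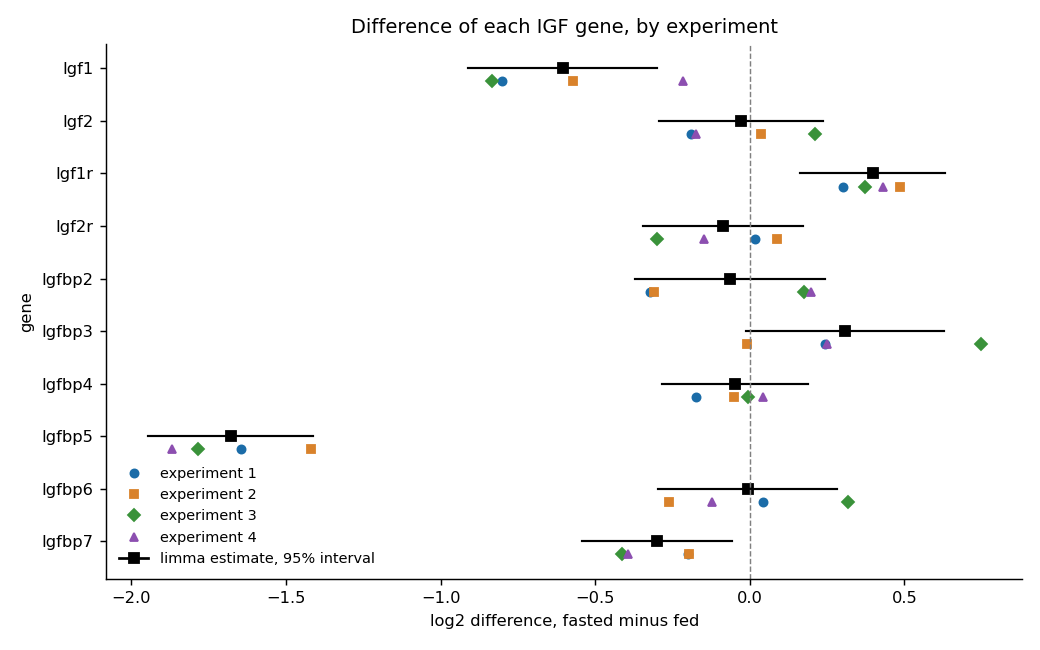
Log2 difference, fasted minus fed (horizontal axis), of each of 10 IGF genes (vertical axis). Black squares and lines are limma's estimate and its 95% interval, and coloured symbols are the differences within experiments 1 to 4. Igfbp5 stands at -1.68, Igf1 at -0.61, Igfbp7 at -0.30 and Igf1r at 0.40, each with 4 of 4 experiments on the same side of 0.

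The genes whose levels followed Igfbp5 most closely over the 8 arrays were Tnfaip2 (Pearson r = 0.995), Tnc, which encodes the matrix protein tenascin-C (r = 0.981), and Dipk1a (r = 0.981). All 8 arrays share the split into fasted and fed pools, so each r contains that difference. Tnfaip2 fell by 0.70 on the log2 scale (SE 0.11, adjusted p = 0.0356), while Tnc was at -0.58 ± 0.10 (adjusted p = 0.0602) and Dipk1a at -0.64 ± 0.12 (adjusted p = 0.0679). Both Tnc and Dipk1a passed without the experiment block (0.0375 and 0.0226) and with a random block (0.0279 and 0.0175). They also passed with array weights (0.0274 and 0.0361), the filter on low means (0.0260 and 0.0287) and a trended robust prior (0.0273 and 0.0325). After quantile normalization Tnc passed (0.0468) and Dipk1a did not (0.0505), and after median centring neither did (0.0760 and 0.142). Neither passed with 3 experiments, whichever was omitted, at adjusted p of 0.0952 to 0.278 for Tnc and 0.125 to 0.311 for Dipk1a. Tnfaip2 was no longer called with 3 experiments, whichever was omitted, at adjusted p of 0.0701 to 0.180, or after median centring (0.0739). It stayed called in each of the remaining alternatives. The genes most like Igf1 were Snrnp35, of the minor spliceosome (r = 0.985), Lipt2, a lipoyl transferase gene of mitochondria (r = 0.972), and the homeobox gene Hoxb2 (r = 0.959). Their differences were -0.29, -0.29 and -0.74, and none passed (adjusted p = 0.342, 0.396 and 0.106). The filter on low means left Hoxb2 out.

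Other genes of the pathway were read through 6 lists. These lists too were chosen with earlier results of these data known, so their counts, here and below, are a description. Of 19 receptor-proximal signalling genes measured, 1 fell and none rose, against 0.818% of all clusters called, with a list median of 0.044. An unadjusted p under 0.05 was reached by 3 higher and 2 lower genes, against 10.9% of all clusters. The one that fell was Grb14, an adaptor that binds the activated insulin receptor and inhibits it, at log2 means of 5.72 in fasted and 6.44 in fed muscle (-0.72 ± 0.12 SE, adjusted p = 0.0411). Grb14 was lower in 4 of 4 experiments, at -0.43, -0.80, -0.79 and -0.85, and its groups did not overlap. It was called in 5 of 11 alternatives and not with 3 experiments, whichever was omitted (adjusted p from 0.0737 to 0.199), after median centring (0.0976) or after quantile normalization (0.0527). Insr, the insulin receptor gene and nearest relative of Igf1r, was at 0.58 ± 0.11 (adjusted p = 0.0743), higher in 4 of 4 experiments with groups that did not overlap, and was called in 5 of 11 alternatives. Irs1, the docking protein gene shared by both receptors, was at -0.44 ± 0.14 (adjusted p = 0.277), with experiment 4 at 0.0058 and the others between -0.75 and -0.48. Irs2 was not analysed here, nor were Pappa and Igf2bp2 of the lists below.

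The growth hormone axis, which drives Igf1 transcription in liver and muscle, held 10 measured genes, of which none passed in limma's test. Of the 10 genes, 9 lay below 0, against 54.4% of all clusters, with a list median of -0.19 and a range of -0.58 to 0.20. An unadjusted p under 0.05 was reached by 3 of them, Socs2, Cish and Ghr, against 10.9% of all clusters. Socs2, a suppressor of cytokine signalling that growth hormone induces through STAT5, was at -0.58 ± 0.11 (adjusted p = 0.0807), lower in 4 of 4 experiments, and was called in 3 of 11 alternatives. Its groups overlapped, with fasted pools up to 7.46 and fed pools from 7.15, and without the experiment block its adjusted p was 0.345. Cish, of the same family, was at -0.51 ± 0.13 (adjusted p = 0.179), with no overlap between groups. The growth hormone receptor gene Ghr was at -0.50 ± 0.21 (adjusted p = 0.432), and its differences were uneven, at -0.020, -0.058, -1.28 and -0.64 in experiments 1 to 4. Igfals, which encodes the partner of IGFBP3 in the circulating complex, was at -0.22 ± 0.11 (adjusted p = 0.571). Its log2 means were 4.59 in fasted and 4.81 in fed muscle, and the filter on low means left it out.

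No gene passed in limma's test in the other 4 lists. At an unadjusted p under 0.05 only Kazald1 and H19 were counted, both lower, against 10.9% of all clusters in either direction. Of 10 proteases that cleave binding proteins and their inhibitors, 9 lay above 0 and 1 below, where 54.4% of all clusters lay below. Their median was 0.043, with a range of -0.16 to 0.20. Adam12 and Htra3, both protease genes, marked the ends of that range (adjusted p = 0.707 and 0.735). Furin, a convertase gene, was at 0.10 (adjusted p = 0.849) and Stc2, an inhibitor of PAPP-A, at 0.048 ± 0.14 (adjusted p = 0.969). Among 9 further binding proteins and proteins with a related domain, with a median of -0.069, Kazald1 was at -0.37 ± 0.15 (adjusted p = 0.390), Ccn1 at 0.28, Ccn2 at 0.22 and Igfbp1, a binding protein gene of liver, at -0.16 ± 0.14 (adjusted p = 0.823). Of 6 genes of the Igf2 locus and of proteins that bind its mRNA or chromatin, with a median of -0.041, the imprinted noncoding RNA H19 was at -0.34 ± 0.12 (adjusted p = 0.362), the insulator protein gene Ctcf at -0.24 and Igf2bp1 at -0.034. Igf2bp1 had log2 means of 4.87 in fasted and 4.90 in fed muscle, and the filter on low means left it out. Of 10 genes that serve mannose-6-phosphate transport beside Igf2r, with a median of 0.040, Plin3 was at 0.20, the adaptor gene Gga2 at -0.18 and the adaptor subunit gene Ap1m1 at 0.15 (adjusted p = 0.577, 0.604 and 0.708).

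**Figure D3:**
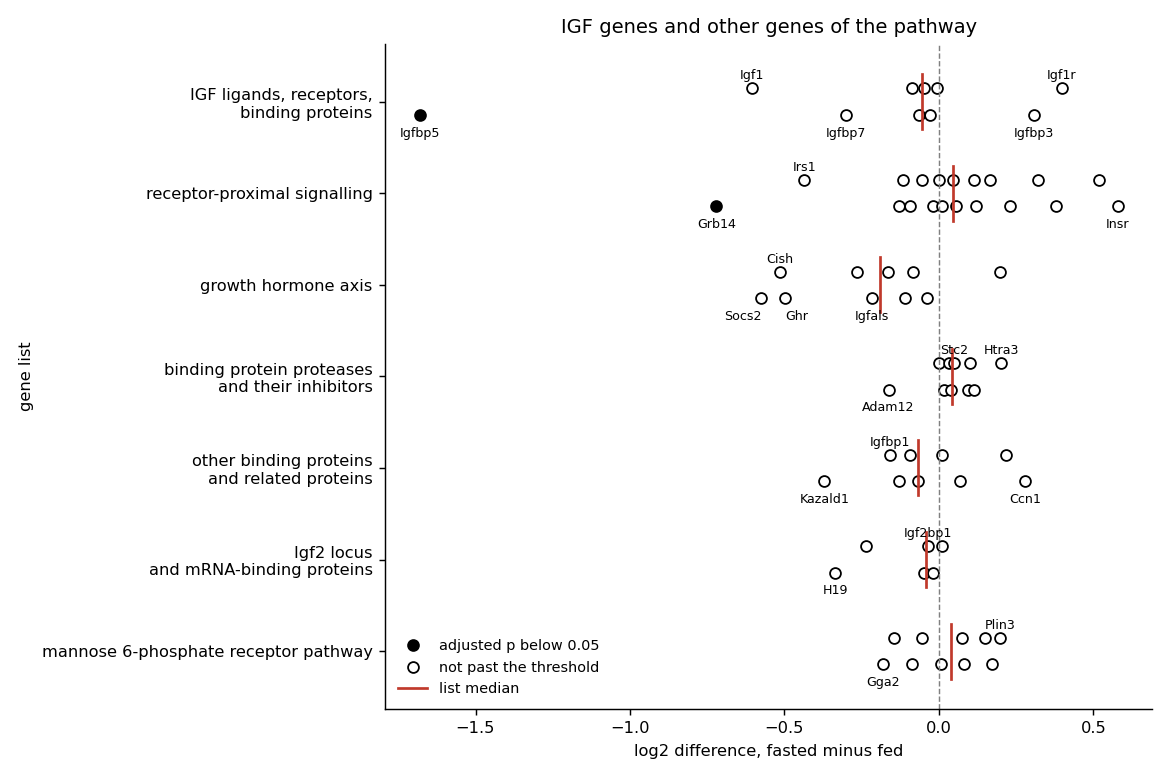
Log2 difference, fasted minus fed (horizontal axis), of the 10 IGF genes and of the measured genes in 6 related lists (vertical axis). Each circle is a gene, filled where the adjusted p was below 0.05, and red lines are list medians. Only Igfbp5 and Grb14 are filled, and 9 of 10 genes of the growth hormone axis lie left of 0, as do 54.4% of all clusters.

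**Figure D4:**
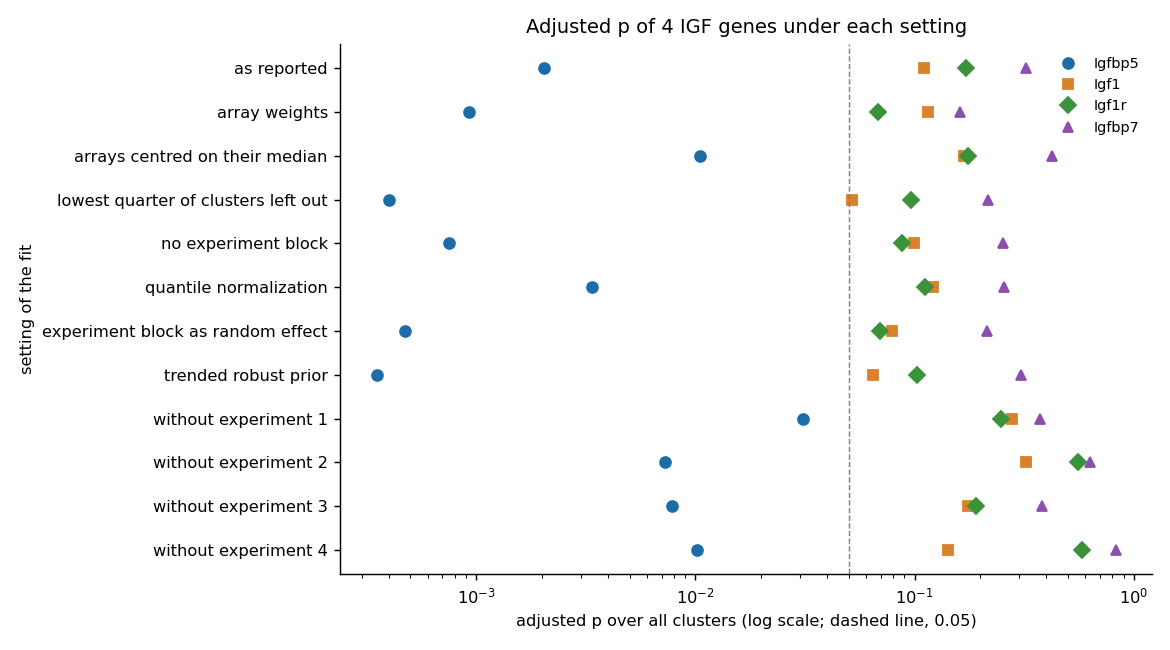
Adjusted p over all clusters (horizontal log axis, dashed line at 0.05) of Igfbp5, Igf1, Igf1r and Igfbp7 in the reported fit and under 11 other settings (vertical axis). Igfbp5 lies left of the line in each, up to 0.031 without experiment 1, and the other 3 genes lie right of it in each, with Igf1 nearest at 0.0518.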

How the data were processed

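RNA of 4 fasted and 4 fed pools was amplified to cDNA, biotin-labelled and hybridised to exon arrays, per the labels' protocols. The authors deposited log2 values made with RMA, per the submitters' processing notes, which also name hg18 with no role. The base of the log was inferred from their range, 1.08 to 13.3. RMA compresses differences at low signal. Platform symbols were used: 14996 clusters had 1, 1019 several and 740 none, with the highest-mean cluster standing for a gene. All 10 IGF symbols matched RefSeq by Entrez number.

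The fit used limma 3.58.1 (lmFit, eBayes; R 4.3.3) with terms for experiment and for fasting, and took fasted minus fed as the difference. Benjamini-Hochberg adjustment ran over 16755 clusters. SEs are moderated (3 residual and 4.84 prior degrees of freedom). The fit was tested on simulated data, drawn once with independent normal noise and with 50 clusters changed at each size. It recovered 34% of log2 changes of 0.5 and 98% of changes of 1. Of its 187 calls, 11.2% were unchanged clusters, above the threshold of 0.05. That share comes from this draw alone and does not measure the error rate of the real fit. The series description places 1 fasted and 1 fed pool in each experiment. Paired arrays' deviations from group means correlated at -0.18, 0.055, -0.14 and 0.44 in experiments 1 to 4. The number of arrays limits the precision.

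The IGF genes and lists were chosen with earlier results of these data known. The text names all 10 IGF genes, up to 3 genes of each related list by adjusted p, fixed genes (Insr, Irs1, Irs2, Ghr, Igfals, Igfbp1, Pappa, Stc2, Igf2bp2, H19) where measured, and the 3 genes most correlated with Igfbp5 and with Igf1. Markers were named after their values were seen. Fibre, liver, fibroblast, endothelial and satellite cell markers are described. Sums were taken over unlogged values, so markers of high signal outweigh the rest, as Rgs5 does among smooth muscle markers. Summed log2 levels of the others overlapped between groups too: smooth muscle 10.4 to 11.0 in fasted and 10.6 to 11.0 in fed, macrophage 8.35 to 8.72 in fasted and 8.22 to 8.64 in fed, adipocyte 8.97 to 9.16 in fasted and 8.83 to 9.18 in fed, Schwann cell 7.44 to 7.94 in fasted and 7.55 to 7.69 in fed muscle. Alternatives were the fit without the block, a random block, each experiment left out, median centring, quantile normalization, a filter on low means, a trended robust prior and array weights.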

Additional observations from a re-analysis of the deposited data

Results flagged for a closer look

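Within 126 groups of 4 values of the genes named, 5 had 1 value far from the other 3, where chance flags about 1 in 20. The difference of Grb14 was -0.43 in experiment 1 and -0.85 to -0.79 in the others. The fed level of Igfals was 4.45 in experiment 1 and 4.88 to 4.96 in the others. The difference of Kazald1 was -0.89 in experiment 3 and -0.23 to -0.17 in the others, and that of Lum was -1.75 in experiment 3 and -0.78 to -0.61 in the others. The difference of Snrnp35 was -0.11 in experiment 4 and -0.37 to -0.33 in the others. No level or difference of the 10 IGF genes was among the 5.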

How the results depend on the processing

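Igfbp5 was the 1 IGF gene called in each of 11 alternatives, with a difference of -1.77 to -1.62 when 1 experiment was left out. Near 0, Igf2 ranged from -0.11 to 0.024, Igfbp2 from -0.15 to 0.021, Igfbp6 from -0.11 to 0.079, Stc2 from -0.11 to 0.14 and Igf2bp1 from -0.14 to 0.047 without 1 experiment, and Igfbp6 was at 0.0097 after median centring. Without the experiment block 185 clusters passed, against 137 with it, and the calls that changed among named genes were those of Tnc and Dipk1a, which passed. The count over all clusters was 265 with array weights, 216 with a trended robust prior, 240 with the filter on low means, 45 after median centring and 229 with a random block. With 3 experiments it lay between 16, when experiment 1 was omitted, and 94, when experiment 3 was, and omitting experiment 4 or 2 left 31 or 37. Of all calls, 65.0% were higher in fasted muscle. In the related lists 1 gene passed, against 3 with array weights, 3 with the filter on low means, 3 with a trended robust prior, 2 with a random block, 0 after median centring and 0 without any 1 experiment. The cause of these changes in count was not tested. Fits with 3 experiments also have fewer arrays. Each IGF gene had 1 cluster, so an average over clusters gave no further value.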
